A study of Mus musculus with 16 samples.

Results

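RNA levels of the heart were compared with those of skin fibroblasts in wild-type mice, on 5 of the 16 arrays of a study of the nuclear motor protein NM1 (nuclear myosin 1, an isoform of the Myo1c gene). The arrays are Affymetrix mouse expression arrays with 1 sample each, hybridised with biotin-labelled cRNA made from 6 ug of total RNA that had been extracted with Trizol. The heart group held 3 samples labelled NM1 wild type (WT), from mice 1592, 1624 and 1593, and the fibroblast group held 2 samples of skin fibroblasts labelled the same way, from mice 1571 and 1623. No treatment is named for either group, and the sources used here do not give strain, sex, age, the part of the heart taken, or the culture and passage of the fibroblasts. The other arrays hold WT lungs and the lungs, heart and fibroblasts of NM1 knockout (KO) mice. They enter below as a further reading of the same genes and in the estimate of scatter behind the p-values. Nothing in the labels ties the heart samples to the fibroblast samples. The p-values measure the scatter of samples inside each of the study's 6 groups, pooled. Samples inside a group have different mouse numbers, so this scatter holds differences between mice as well as technical ones. Lungs and heart samples share mouse numbers, and the main fit treats them as independent. Of 45037 probe sets (groups of short probes that read 1 transcript), 24763 had a mean in WT heart or in WT fibroblasts above the median of the whole table, 3.79 on the log2 scale, and these were compared. They stood for 11118 of 17097 genes, with 1 probe set per gene. Ccdc13 was the gene just inside this limit, with a higher group mean of 3.7871, and Fat3 the gene just outside it, at 3.7863.

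The heart is built for steady contraction. Its muscle cells, the cardiomyocytes, pack sarcomeres (repeating units in which thick myosin filaments slide past thin actin filaments), a store of calcium ions that is opened and refilled at each beat, and many mitochondria that burn mainly fatty acids. Blood vessel cells, resident fibroblasts, macrophages and cells of the outer lining lie between them. Fibroblasts of the skin make the collagen-rich matrix of the dermis, and once taken out of the tissue and grown on a dish they spread, divide and secrete many signalling proteins. A whole organ and isolated cells were thus set side by side. In such bulk samples, fewer cells of a type and less RNA per cell cannot be told apart.

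The 5 arrays carried the markers of their labels. Myl2, the regulatory light chain of ventricular myosin, lay at 13.92, 13.83 and 13.92 log2 in the hearts of mice 1592, 1624 and 1593 and at 3.82 and 3.44 in the fibroblasts of mice 1571 and 1623 (arrays are given in this order throughout). Tnnt2, cardiac troponin T, lay at 13.36, 13.34 and 13.31 in heart and at 2.67 and 3.70 in fibroblasts. Col1a1, a chain of collagen I, lay at 4.90, 5.67 and 6.49 in heart and at 11.42 and 10.88 in fibroblasts, and Thy1, a surface protein of many fibroblasts, at 5.11, 5.73 and 5.93 and at 10.98 and 11.43. None of the 4 markers overlapped between the groups, which with so few arrays held for 82.5% of the genes compared. Across probe sets, which are not independent replicates, heart arrays correlated with each other with r from 0.989 to 0.990, the fibroblast arrays with r = 0.986, and heart with fibroblast arrays with r from 0.838 to 0.853. Array medians lay between 3.75 and 3.79 log2 in heart and between 3.65 and 3.72 in fibroblasts. The table holds no detection call, so a signal below the table's median is called low here and not absent, and the size of a difference from such a level is uncertain. The number of arrays limits the precision.

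Differences are given as WT heart minus WT fibroblasts on the log2 scale, so that positive values are higher in heart, with a standard error (SE) and a p-value from limma adjusted by the Benjamini-Hochberg method over all compared probe sets. An adjusted p under 0.05 is called. The 2 sources differed at most of what was compared. Of 24763 probe sets, 15883 were called (64.1%), 6944 of them higher in heart (28.0%) and 8939 higher in fibroblasts (36.1%). A called difference of at least 4-fold was found for 2126 probe sets in heart (8.59%) and 2102 in fibroblasts (8.49%). Of the 11118 genes, 7463 were called (67.1%), with 3278 higher in heart (29.5%) and 4185 higher in fibroblasts (37.6%), and at least 4-fold for 1132 (10.2%) and 1045 (9.40%). With so few arrays, all values of 1 group lay above all values of the other for 9177 genes (82.5%). The median difference over these genes was -0.16. These shares are the background against which the counts of gene groups below are read.

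A stricter, untested description kept genes that read high, above the table's upper quartile of 6.31 log2, on every array of 1 source and low, below its median of 3.79, on every array of the other. It gave 255 genes for heart (2.29% of the 11118) and 98 for fibroblasts (0.881%). Of the 255 heart genes, 97 also read high on all 3 WT lungs arrays and 64 read low on all of them. Of the 98 fibroblast genes, 4 read high on all WT lungs arrays and 55 low.

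**Figure D1:**
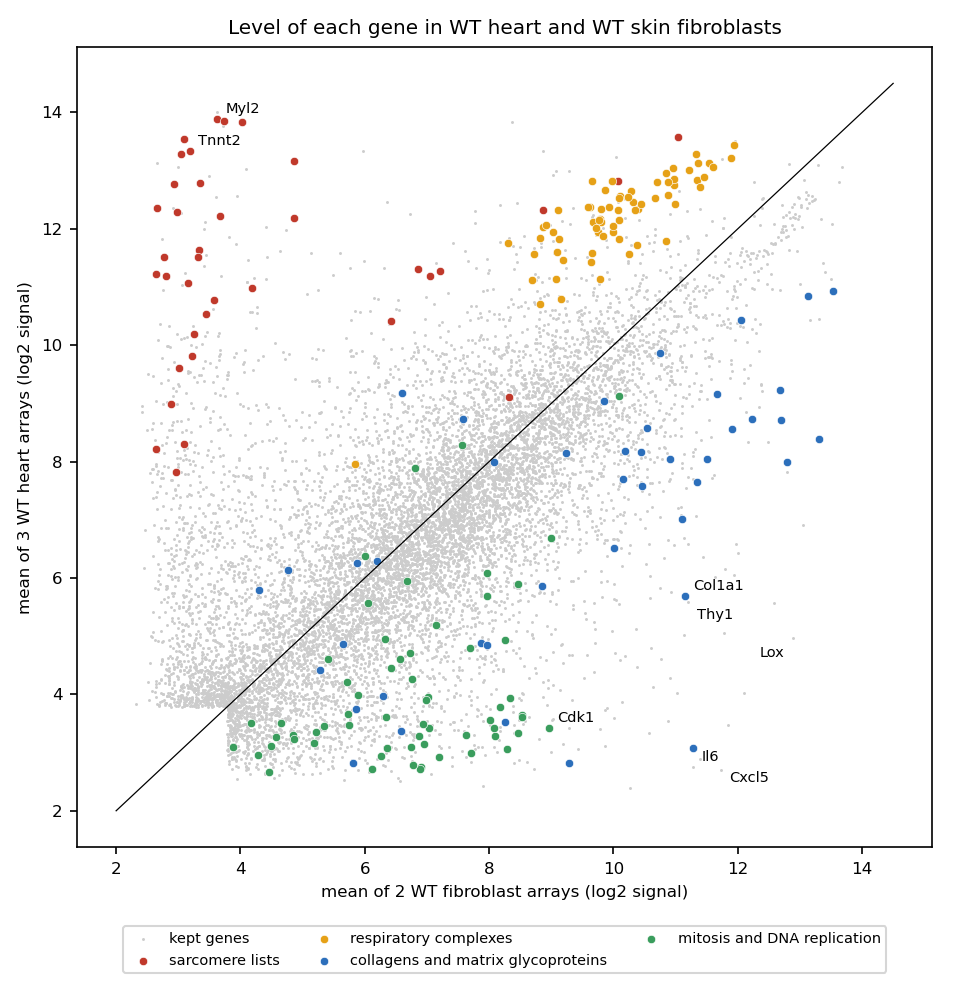
Mean log2 signal of each of the 11118 compared genes in 3 WT heart arrays (vertical axis) and 2 WT fibroblast arrays (horizontal axis), with 1 point per gene and a line where both are equal. Most sarcomere genes lie at the upper left and most collagen, glycoprotein, mitosis and replication genes below the line. All respiratory chain genes lie above the line, nearly all at high levels in both sources.

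The largest differences in the direction of heart belonged mostly to the contractile apparatus. The 15 largest were, in order, Pln, Myh7, Mb, Myl2, Tnni3, Tnnt2, Actc1, Nppa, Hba-a1, Ttn, Ckmt2, Myl3, Myoz2, Ckm and Csrp3, and they ran from 10.46 to 9.44 log2. Pln, phospholamban, the brake on the calcium pump of the sarcoplasmic reticulum, lay at 13.06, 13.19 and 13.12 in heart and at 2.75 and 2.58 in fibroblasts, a difference of 10.46 (SE 1.15, adjusted p = 2.69e-06), or 1410-fold. Myh7, the slow or beta myosin heavy chain, lay at 13.55, 13.51 and 13.58 in heart and at 2.77 and 3.42 in fibroblasts (10.45, SE 0.92, adjusted p = 2.8e-07). The near-identical Myh6, the main myosin heavy chain of the adult mouse heart, was not analysed here because no probe set was matched to it alone, so the 2 genes' signals may be mixed and the Myh7 value is uncertain. Mb, myoglobin, which stores oxygen in muscle, lay at 14.00, 14.00 and 14.04 in heart and at 3.48 and 3.77 in fibroblasts (10.39, SE 1.20, adjusted p = 4.52e-06). The heart arrays differed little from each other at these genes, while the SE pools the spread of all 6 groups of the study, among them WT lungs, where Pln lay at 8.22, 6.15 and 5.73 and Mb at 10.46, 8.45 and 8.04.

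Hba-a1, the alpha chain of haemoglobin, is a gene of red blood cells and stood among these 15 at 13.91, 13.46 and 13.91 in heart against 3.79 and 3.64 in fibroblasts. Its probe set and those of the other globin genes can share signal between near-identical copies.

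**Figure D2:**
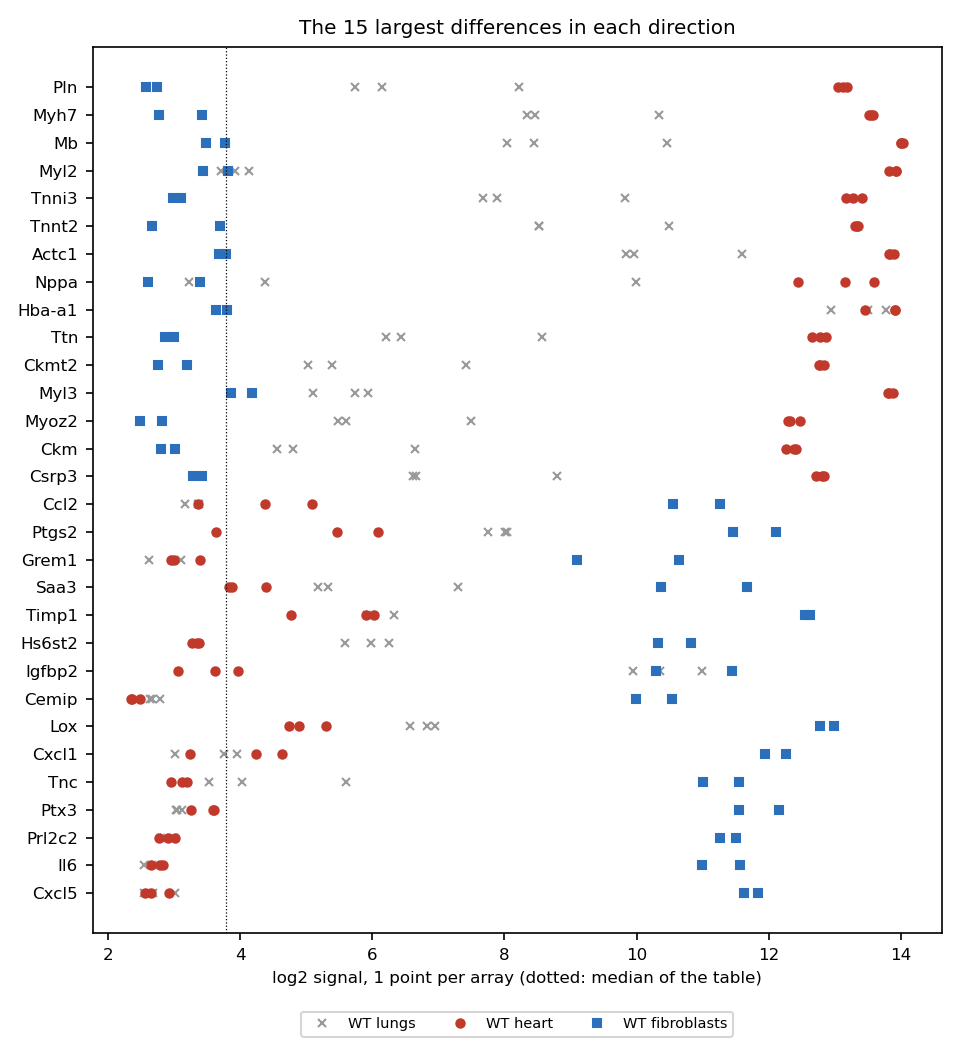
Log2 signal of the 15 genes with the largest called difference in each direction, with 1 point per array for WT heart (3), WT fibroblasts (2) and WT lungs (3), and the table's median dotted. Heart and fibroblast points are far apart at every gene shown, and lungs points lie between them for most muscle genes but at the low side for Myl2.

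The sarcomere lists moved together. Of 11 genes listed for the thick filament and its regulators, 7 were measured and all 7 were called higher in heart, with a median difference of 9.82. Of 12 thin filament genes, 11 were measured and called higher in heart, with a median of 7.91, and of 24 genes of the Z-disc, M-band and costamere, which anchor the filaments and tie them to the membrane, 19 were measured and called higher in heart, with a median of 6.11. The smallest of these differences was that of Flnc, filamin C, at 0.80 (adjusted p = 0.0359), a call lost without heart 1593 or either fibroblast array, and with no filter on low values. With the mean of all probe sets of a gene in place of 1, 1 member each of the thin filament and Z-disc lists was called higher in fibroblasts. Tnni3, cardiac troponin I, the inhibitory subunit that calcium releases, lay at 13.17, 13.41 and 13.28 in heart and at 3.10 and 2.98 in fibroblasts (10.24, SE 1.11, adjusted p = 2.39e-06). Actc1, cardiac alpha-actin, lay at 13.83, 13.82 and 13.89 against 3.68 and 3.78 (1114-fold, adjusted p = 1.78e-07). Ttn, titin, the giant spring that spans the sarcomere, lay at 12.65, 12.78 and 12.87 against 3.00 and 2.86 (918-fold). Tcap, the cap of titin at the Z-disc, lay at 12.12, 12.38 and 12.40 against 3.13 and 2.83, and Myoz2, a Z-disc protein that binds calcineurin, at 12.29, 12.47 and 12.33 against 2.81 and 2.49. In none of these did any fibroblast array come above the table's median.

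Genes of excitation and of calcium release followed. Of 22 listed, 19 were measured, of which 16 were called higher in heart and 2 higher in fibroblasts, with a median of 3.63. Casq2, cardiac calsequestrin, which binds calcium in the store, lay at 11.58, 11.50 and 11.56 in heart and at 3.65 and 3.25 in fibroblasts (8.10, SE 0.77, adjusted p = 6.21e-07), and Hrc, another calcium-binding protein of the store, at 12.00, 12.12 and 11.87 against 3.42 and 3.42. Atp2a2, the calcium pump itself, was well above the table's median in fibroblasts too, at 8.46 and 8.29, and lay at 13.80, 13.89 and 13.80 in heart (5.46, 43.9-fold). Against the list's direction went Fkbp1b, which binds the ryanodine receptor, at 3.74, 3.46 and 3.46 in heart and 5.10 and 4.69 in fibroblasts (-1.34, adjusted p = 0.000519). Asph, whose locus also encodes junctin and junctate, went the same way at -0.57 (adjusted p = 0.0335), a call lost without heart 1592 or 1624 or fibroblasts 1571, while all 5 of its other probe sets had the opposite sign, 3 of them called higher in heart.

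Of 20 ion channel genes of the action potential, 14 were measured, 13 passed the filter and all 13 were called higher in heart (median of the 14, 3.60). Kcnip2, a subunit of the transient outward potassium channel, lay at 9.01, 9.40 and 8.66 in heart and at 2.89 and 2.76 in fibroblasts (6.20, SE 0.20, adjusted p = 1.85e-11). Kcnj3, a channel that acetylcholine opens in pacemaker and atrial cells, lay at 8.25, 7.96 and 8.63 against 2.77 and 2.69. Of 14 genes of the intercalated disc, the junction through which cardiomyocytes pull on each other and pass current, 12 were measured, 11 passed the filter and 11 were called higher in heart (median 3.77). Dsp, desmoplakin, lay at 11.92, 11.80 and 11.78 against 2.64 and 2.85 (545-fold), Dsg2, a desmosomal cadherin, at 10.05, 10.26 and 10.18 against 3.08 and 3.80, and Popdc2, a membrane protein of muscle that binds cyclic AMP, at 10.18, 10.22 and 9.94 against 3.23 and 2.86.

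Genes of atrial muscle were less even between the hearts. Of 9 listed, 7 were measured, 6 were called higher in heart and Dkk3, which was named after its value was seen, was not called (-1.04), with a median of 5.54. Myl7, the atrial regulatory light chain, lay at 12.44, 11.14 and 13.23 in the hearts and at 3.12 and 2.96 in fibroblasts (9.23, SE 1.76, adjusted p = 0.00041), and Myl4, the atrial essential light chain, at 11.79, 10.45 and 12.62 against 4.71 and 4.55. Nppa, the precursor of atrial natriuretic peptide, lay at 13.15, 12.45 and 13.60 against 3.39 and 2.61 (10.06, SE 2.01, adjusted p = 0.000593). All 3 genes read lowest in heart 1624, and the mean over the list was 9.06 there against 10.01 and 10.34 in hearts 1592 and 1593. All 6 genes listed as stress markers and natriuretic peptides were called higher in heart (median 5.87), among them Corin, the protease that activates the natriuretic peptides, at 9.80, 9.61 and 9.48 against 3.69 and 3.51.

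Transcription factors of heart development and muscle showed the same direction. Of 24 listed, 23 were measured, 20 passed the filter, 17 were called higher in heart and 1 higher in fibroblasts (median of the 23, 3.26). Hopx, a homeodomain cofactor, lay at 11.89, 12.20 and 12.00 in heart and at 4.59 and 4.25 in fibroblasts (7.61, SE 0.17, adjusted p = 8.26e-13), and it was high in WT lungs too, at 12.79, 12.89 and 13.15. Tbx20, a T-box factor of the heart, lay at 9.47, 9.35 and 9.68 against 2.48 and 2.54, and Myocd, myocardin, the coactivator of serum response factor in muscle, at 8.20, 8.70 and 8.75 against 2.54 and 2.46. Mef2a and Mef2d, factors of the MEF2 family that switch on muscle genes, were present in both sources and higher in heart, at 10.66, 10.78 and 10.58 against 8.50 and 8.54 and at 8.87, 9.02 and 8.94 against 7.49 and 7.03. Tead1, which also acts in many other cells, went the other way at -0.49 (adjusted p = 0.0247), a call lost without heart 1624 or fibroblasts 1623 (without the latter the difference was -0.26).

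**Figure D3:**
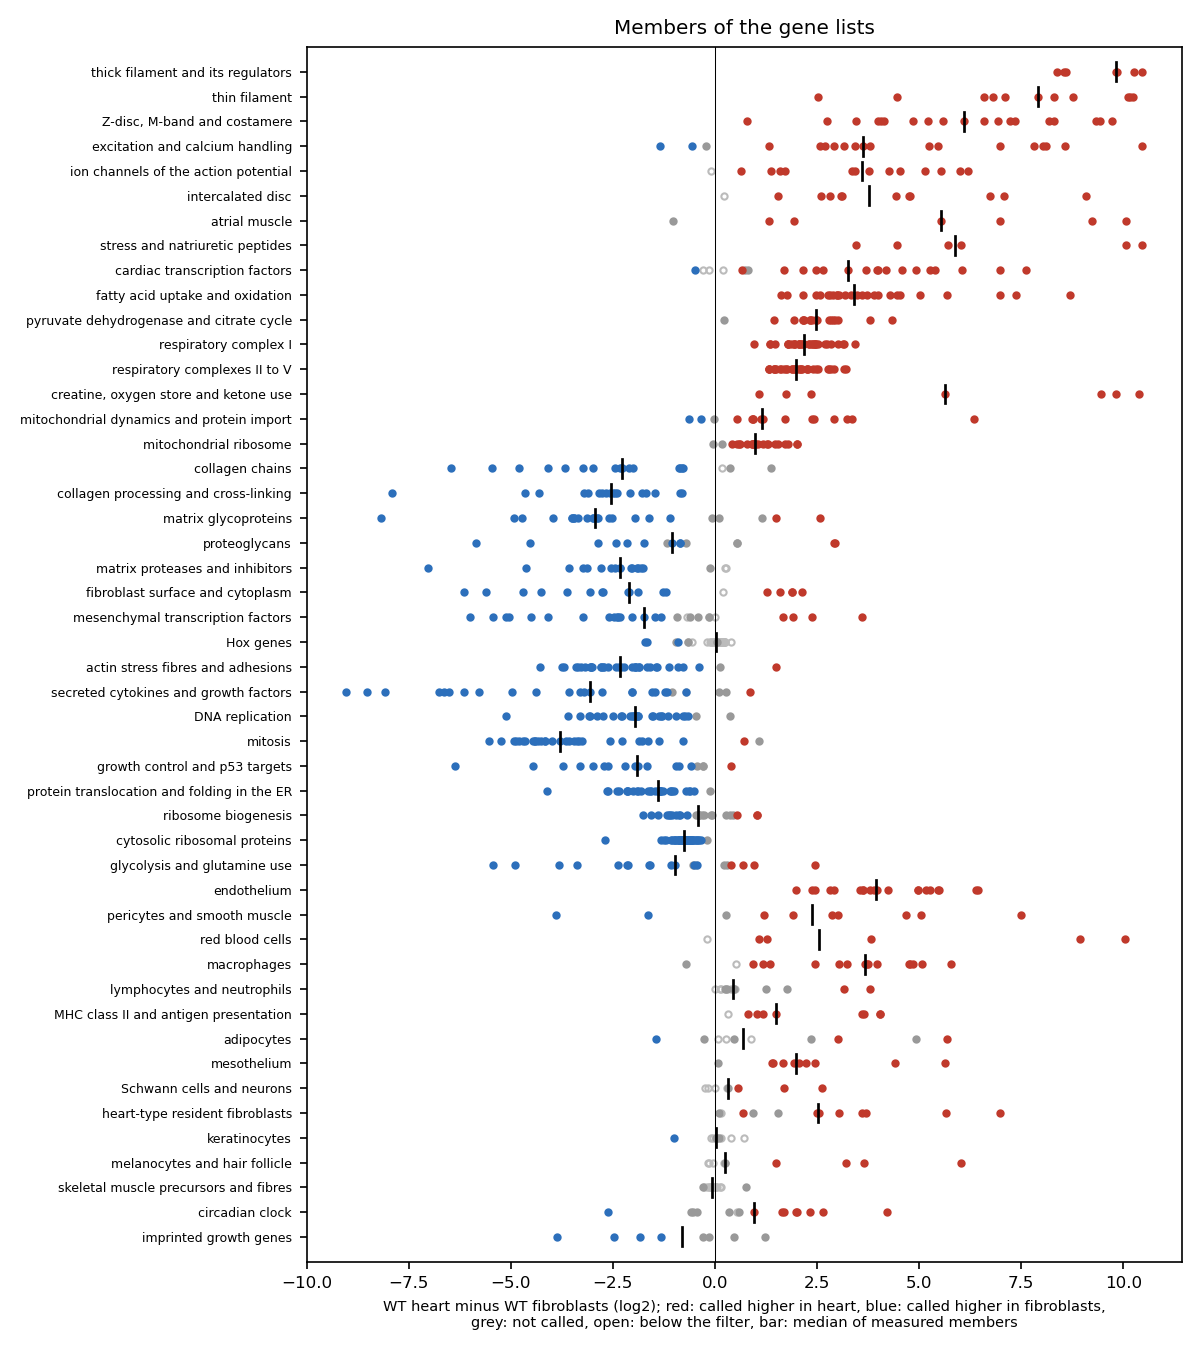
Difference of every measured member of the 48 gene lists, WT heart minus WT fibroblasts in log2, with 1 point per gene, red where called higher in heart, blue where called higher in fibroblasts, grey where not called and open where below the filter, and a bar at each list's median. Lists of muscle and mitochondria lie to the right and lists of matrix, actin, secretion and division to the left, with medians from 9.82 for the thick filament to -3.80 for mitosis.

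Because the MEF2 factors and serum response factor bind known DNA motifs, the promoters of the genes high in heart and low in fibroblasts were read for those letters. RefSeq promoters (build GRCm38.p6, 250 bases before to 50 bases after each start site) were found for 199 of the 255 genes, 263 windows in all, and for 71 of the 98 fibroblast genes, 89 windows. The MEF2 motif stood in 25 of the 263 heart windows (9.51%), in 1 of 89 fibroblast windows (1.12%) and in 2.09% of the 17065 windows of all measured genes. The CArG box, the motif of serum response factor, stood in 3.04%, 1.12% and 1.41% of the same windows. The letters TATAAA stood in 15.6%, 11.2% and 10%. In the 11584 windows of the genes that passed the filter, the shares were 1.79% for MEF2, 1.37% for the CArG box and 7.64% for TATAAA. Both strands were searched, and a MEF2 motif and TATAAA can overlap. Over the called genes with at least 4-fold differences, the MEF2 motif stood in 4.70% of 1171 heart windows and 1.25% of 1040 fibroblast windows. No test was made of these shares, and a match describes the letters and not binding.

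The MEF2 motif was found in windows of 24 of the genes high in heart, with Ttn, Myoz2, Mybpc3 and Casq2 leading by difference, and the CArG box in windows of 7, with Actc1, Myl7 and Myom1 leading. The 150 bases before the start sites of Myoz2, of Mybpc3 (cardiac myosin-binding protein C), of Casq2 and of Actc1 show where these letters lie, with the motif in capitals. The Myoz2 window is chr3:123034988-123035137 on the minus strand, and its MEF2 motif lies 33 to 24 bases before the start.
Myoz2: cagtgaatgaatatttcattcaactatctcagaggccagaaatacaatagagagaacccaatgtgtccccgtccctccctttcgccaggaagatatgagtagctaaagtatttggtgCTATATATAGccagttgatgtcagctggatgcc
The Mybpc3 window is chr2:91117994-91118143 on the plus strand, with the motif 90 to 81 bases before the start.
Mybpc3: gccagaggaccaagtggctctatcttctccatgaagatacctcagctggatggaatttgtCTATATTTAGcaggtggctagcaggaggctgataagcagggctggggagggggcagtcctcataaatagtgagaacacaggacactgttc
The Casq2 window is chr3:102086265-102086414 on the plus strand, with the motif 69 to 60 bases before the start.
Casq2: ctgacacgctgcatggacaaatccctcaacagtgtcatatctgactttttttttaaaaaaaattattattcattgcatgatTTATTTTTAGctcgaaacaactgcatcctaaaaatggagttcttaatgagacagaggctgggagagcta
The Actc1 window is chr2:114052876-114053025 on the minus strand, and its capitals mark a CArG box 47 to 38 bases before the start.
Actc1: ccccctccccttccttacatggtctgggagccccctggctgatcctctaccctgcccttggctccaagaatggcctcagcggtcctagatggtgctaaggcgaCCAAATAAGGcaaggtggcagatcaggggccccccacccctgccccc
The differences of these 4 genes, WT heart minus WT fibroblasts, were 9.71, 8.55, 8.10 and 10.12 log2. The 150 bases before either start site of Myl2 held 0 matches to the motifs searched, while Myl2 differed by 10.26.

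Genes that feed and run the mitochondria were higher in heart almost without exception, though most were well expressed in fibroblasts too. Of 29 genes of fatty acid uptake and oxidation, 26 were measured and all 26 were called higher in heart, with a median of 3.40. Cd36, the main fatty acid transporter, lay at 12.01, 12.22 and 12.12 in heart and at 3.51 and 3.35 in fibroblasts (8.68, SE 0.13, adjusted p = 3.51e-14), and at 11.49, 11.65 and 11.84 in WT lungs. Fabp3, the fatty acid carrier of heart muscle, lay at 13.27, 13.38 and 13.36 against 5.67 and 6.27 (165-fold), and Cpt1b, which admits fatty acids to muscle mitochondria, at 11.06, 11.18 and 11.05 against 3.98 and 4.24 (127-fold).

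Of 22 genes of pyruvate dehydrogenase and the citrate cycle, 19 were measured, 18 were called higher in heart and Pcx, named after its value was seen, was not (0.22), with a median of 2.47. The largest were Idh2, the mitochondrial isocitrate dehydrogenase that makes NADPH, at 12.11, 12.17 and 12.01 against 7.95 and 7.59 (20.1-fold), Ogdh, a subunit of the oxoglutarate dehydrogenase complex, at 11.42, 11.50 and 11.41 against 7.50 and 7.81 (13.8-fold), and Pdhx of the pyruvate dehydrogenase complex, at 9.45, 9.40 and 9.27 against 6.22 and 6.52. The respiratory chain moved as a block of smaller differences. All 33 measured of 37 complex I genes were called higher in heart, between 0.95 and 3.44 (median 2.18), and all 34 measured of 36 genes of complexes II to V, between 1.32 and 3.21 (median 1.98). Ndufs1, the largest subunit of complex I, lay at 11.76, 11.86 and 11.64 in heart and at 8.19 and 8.43 in fibroblasts (10.8-fold, adjusted p = 5.53e-09), and Cyc1, cytochrome c1, at 12.33, 12.37 and 12.28 against 9.08 and 9.15 (9.24-fold). Averaged over the complex I list, every heart array (11.99 to 12.12 log2) stood above both fibroblast arrays (9.80 and 9.88), and WT lungs read 9.81.

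Energy buffering showed larger steps. All 7 measured of 9 genes for creatine, oxygen storage and ketone use were called higher in heart (median 5.64). Ckmt2, mitochondrial creatine kinase of muscle, lay at 12.77, 12.83 and 12.78 against 3.19 and 2.75 (906-fold), and Ckm, its cytosolic partner, at 12.41, 12.39 and 12.27 against 2.80 and 3.02 (698-fold). Genes of mitochondrial shape and protein import were mixed in size. Of 18 listed, 16 were measured, 13 called higher in heart and 2 higher in fibroblasts (median 1.15). Perm1, a muscle regulator of mitochondrial genes, stood far ahead at 9.69, 9.51 and 9.42 against 3.27 and 3.12, and the fusion proteins Mfn1 and Mfn2 followed at 3.36 and 3.24. The import receptors Tomm70a (-0.63, adjusted p = 0.00145) and Tomm20 (-0.34, adjusted p = 0.0211) were higher in fibroblasts, but the 1 other Tomm70a probe set was called higher in heart, and the call of Tomm20 was lost without heart 1624 or fibroblasts 1623, at -0.31 and -0.19. Of 24 mitochondrial ribosomal proteins, 22 were measured and 20 called higher in heart, with a median of 0.97. Mrpl1 and Mrpl12 led at 2.02 and 2.02.

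Many muscle proteins have a relative, coded by another gene, that does a like job in most other cells. On this idea 41 pairs were listed, and both genes were measured for 33. The first gene of each is called the muscle gene here, though not every pair holds a form confined to muscle. The mitochondrial Idh2 and the cytosolic Idh1 are such a pair, and Atp2a2 was well above the table's median in fibroblasts too. The counts are therefore of pairs as listed. The muscle gene was called higher in heart in 31 of the 33 pairs, and in 17 of these the general relative was called higher in fibroblasts. Both were called higher in heart in 7, and the relative was not called in 7, among them Itga5, which was below the filter and not tested. Over all genes compared, 37.6% were called higher in fibroblasts and 29.5% higher in heart. Some calls in the pairs changed with the processing or the arrays used. The call of Acaca, one of the 17 relatives, was lost without heart 1592, heart 1624 or fibroblasts 1623 and with quantile normalization, at -1.22 to -1.10. Fabp5, one of those not called (-0.46, adjusted p = 0.0668), was called higher in fibroblasts without heart 1592 (-0.63), without fibroblasts 1623 (-0.70), with the arrays shifted to 1 median (-0.54) and with an intensity trend. The call of Hspb1 higher in heart was lost without heart 1593 (0.88) or fibroblasts 1571 (0.65). Since levels of different probe sets cannot be set against each other, only each gene's own difference is compared here.

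The opposition was found in protein synthesis, in filaments and in fuel use alike. Rpl3l, a muscle form of a large-subunit ribosomal protein, lay at 10.02, 9.68 and 9.42 in heart and at 2.88 and 2.97 in fibroblasts (6.78, SE 0.18, adjusted p = 4.15e-12), while the general Rpl3 lay at 11.09, 10.92 and 11.18 against 12.49 and 12.46 (-1.42, SE 0.13, adjusted p = 3.32e-07). Eef1a2, the elongation factor of muscle and neurons, differed by 6.46 (adjusted p = 2.83e-10) and the general Eef1a1 by -1.17 (adjusted p = 1.47e-05). Both muscle genes were thus far higher in heart, and both general genes were about 2 to 3-fold higher in fibroblasts (2.67-fold for Rpl3 and 2.25-fold for Eef1a1). Actn2, the alpha-actinin of the Z-disc, lay at 11.54, 11.63 and 11.73 against 3.27 and 3.39, and Actn1, its relative in stress fibres, at 6.81, 6.90 and 7.45 against 10.45 and 11.05, which gave differences of 8.30 and -3.70. Slc2a4, the insulin-responsive glucose transporter, and Slc2a1, the general one, differed by 6.17 and -2.38. Idh2 and the cytosolic Idh1 differed by 4.33 and -0.94, and Pdk4 and Pdk3, kinases that switch off pyruvate dehydrogenase, by 5.03 and -3.61. Ldhb, the heart form of lactate dehydrogenase, and Ldha, the muscle and general form, differed by 4.25 and -0.45, the second a small difference whose call was lost without fibroblasts 1571. Cav3, the caveolin of muscle, differed by 5.58 and Cav1 by -0.64, a value that was -0.22 and not called without fibroblasts 1623, -1.05 without fibroblasts 1571, and not called without heart 1592.

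Subunits of cytochrome c oxidase showed 3 patterns. Cox6a2, the muscle form, lay at 12.60, 12.70 and 12.40 in heart and at 4.80 and 3.08 in fibroblasts, and its general relative Cox6a1 at 11.94, 11.89 and 12.00 against 12.64 and 12.77 (-0.76, adjusted p = 0.000334). Cox7a1 lay at 12.65, 12.55 and 12.45 against 3.57 and 3.65, and the general Cox7a2 was also higher in heart, by 1.49 (adjusted p = 4.45e-07). Cox8b lay at 12.98, 12.97 and 12.80 against 3.60 and 3.40, and the general Cox8a at 10.09, 10.17 and 10.19 against 10.10 and 10.15, a difference of 0.02 (SE 0.14) that was not called. So the general relative was lower, higher and not distinguishable in heart in turn, while the 3 muscle forms differed by 8.62, 8.94 and 9.42.

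**Figure D4:**
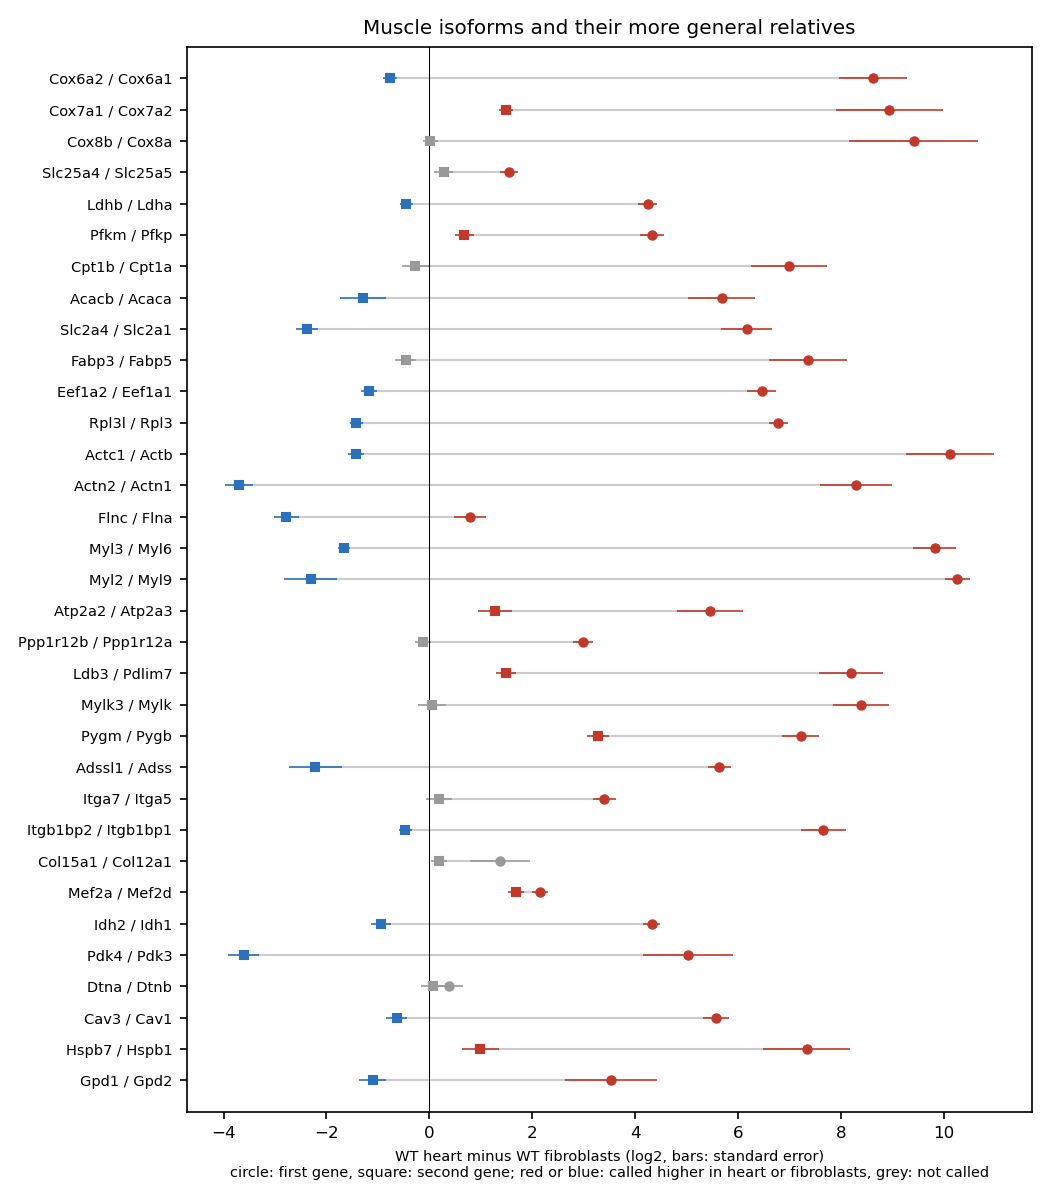
Difference of each gene in 33 pairs, WT heart minus WT fibroblasts in log2 with its standard error. On each line, the gene listed as the muscle gene is a circle and the gene listed as its relative a square. In 17 pairs the muscle gene was called higher in heart and its relative higher in fibroblasts, as for Rpl3l and Rpl3 (6.78 and -1.42).

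In the other direction, the largest differences belonged mostly to secreted proteins. The 15 largest were, in order, Cxcl5, Il6, Prl2c2, Ptx3, Tnc, Cxcl1, Lox, Cemip, Igfbp2, Hs6st2, Timp1, Saa3, Grem1, Ptgs2 and Ccl2, from -9.03 to -6.63. Cxcl5, a chemokine that attracts neutrophils, lay at 2.56, 2.64 and 2.92 in heart and at 11.83 and 11.63 in fibroblasts (-9.03, SE 0.15, adjusted p = 8.77e-14), or 522-fold higher in fibroblasts. Il6, the inflammatory cytokine interleukin 6, lay at 2.78, 2.66 and 2.82 against 11.57 and 10.99 (-8.53, SE 0.16, adjusted p = 1.68e-13). Both were low in WT lungs too, at 3.01, 2.55 and 2.69 for Cxcl5 and 2.70, 2.54 and 2.67 for Il6. Ptx3, a pentraxin of innate immunity that also organises matrix, lay at 3.60, 3.25 and 3.59 against 12.15 and 11.54 (330-fold), and Ptgs2, the inducible enzyme of prostaglandin synthesis, at 5.46, 3.64 and 6.08 against 11.46 and 12.11 (106-fold). Prl2c2, proliferin, a hormone of the prolactin family, lay at 2.91, 3.02 and 2.76 against 11.51 and 11.27, with near-identical family members that may share its probes. The hearts differed among themselves at several of these genes. Ptgs2, Ccl2 (4.38, 3.36 and 5.08) and Cxcl1 (4.23, 3.23 and 4.63) all read lowest in heart 1624.

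The cytokine list as a whole went with them. Of 30 genes for secreted cytokines and growth factors, 27 were measured, 26 passed the filter, 22 were called higher in fibroblasts and 1, Tgfb1, higher in heart (median of the 27, -3.07). Tgfb1 lay at 4.26, 4.67 and 4.92 against 3.52 and 3.999 (0.86, adjusted p = 0.00635), a call lost without fibroblasts 1571. The Il6 promoter is shown because Il6 is a known target of NF-kappa-B, and the NF-kappa-B motif was added to the search after the data had been seen. It stood, on either strand, in 8.99% of the 89 windows of genes high in fibroblasts, 3.80% of the 263 heart windows and 5.14% of the windows of all measured genes, and in 6.83% and 4.87% of the windows of genes at least 4-fold higher in fibroblasts and in heart. The Il6 window is chr5:30012964-30013113 of GRCm38.p6 on the plus strand, with the match in capitals 44 to 35 bases before the start.
Il6: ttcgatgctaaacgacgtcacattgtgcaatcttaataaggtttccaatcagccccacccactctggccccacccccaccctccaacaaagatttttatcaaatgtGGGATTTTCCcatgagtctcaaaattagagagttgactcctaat

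Most matrix genes were higher in fibroblasts, with some exceptions. All 20 collagen chains listed were measured, 19 passed the filter and 17 were called higher in fibroblasts (median of the 20, -2.28). Col11a1, a fibril-nucleating chain, lay at 2.70, 2.68 and 3.09 in heart and at 8.62 and 9.94 in fibroblasts (-6.46, SE 0.28, adjusted p = 2.6e-10). Col1a1 differed by -5.46 (5.69 ± 0.79 in heart, SD, n = 3, against 11.15 ± 0.38, SD, n = 2), and Col5a2 by -4.79. Col15a1, a collagen of basement membranes, read 5.53, 6.21 and 6.70 in heart and 6.06 and 3.48 in fibroblasts (1.38, adjusted p = 0.0517), and was called higher in heart without heart 1592, at 1.69, or without fibroblasts 1571, at 2.66. Without fibroblasts 1623 the difference of Col15a1 was 0.09 (adjusted p = 0.886, limma). All 18 measured of 21 genes that process and cross-link collagen were called higher in fibroblasts (median -2.54), led by Lox, lysyl oxidase, at 4.73, 5.29 and 4.88 against 12.99 and 12.77 (241-fold), then Loxl2 (-4.66) and Loxl3 (-4.31).

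Of 29 matrix glycoproteins, 24 were measured, 19 were called higher in fibroblasts and 2 higher in heart (median -2.94). Tnc, tenascin C, a matrix protein of wounds and development, lay at 2.95, 3.12 and 3.19 in heart and at 10.999 and 11.55 in fibroblasts (292-fold), Fn1, fibronectin, at 8.87, 7.72 and 8.56 against 13.24 and 13.37, and Fbn2, fibrillin 2, at 3.47, 3.60 and 3.50 against 8.50 and 8.01. The 2 genes higher in heart were Lama2, the laminin chain of the muscle basement membrane, at 8.83, 9.33 and 9.38 against 6.35 and 6.85 (2.58, adjusted p = 8.13e-07), and Eln, elastin, at 5.75, 5.72 and 5.92 against 4.57 and 4.03 (1.495, adjusted p = 6.07e-05). Proteoglycans were divided, with 15 of 16 measured, 9 called higher in fibroblasts and 2 higher in heart (median -1.05). Has2, which makes hyaluronan, differed by -5.86 and Vcan, versican, by -4.54. Lum, lumican, was higher in heart, at 10.19, 9.78 and 10.78 against 7.90 and 6.78 (2.91, adjusted p = 0.000705), as was Gpc1, a heparan sulfate proteoglycan of the cell surface (2.94). Of 22 proteases and inhibitors, 19 were measured, 17 passed the filter and 16 were called higher in fibroblasts (median of the 19, -2.32), with Timp1, an inhibitor of metalloproteinases, at -7.03, the membrane protease Mmp14 at -4.63 and the gelatinase Mmp2 at -3.58.

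Genes commonly used to mark fibroblasts did not all follow the fibroblasts. Of 22 listed for surface and cytoplasm, 19 were measured, 18 passed the filter, 13 were called higher in fibroblasts and 5 higher in heart (median of the 19, -2.11). S100a4, a calcium-binding protein of motile cells, lay at 7.08, 6.43 and 7.21 in heart and at 12.93 and 13.17 in fibroblasts (70.7-fold), and Pdgfra, the platelet-derived growth factor receptor of mesenchymal cells, at 4.50, 3.72 and 4.53 against 9.07 and 8.83 (26.0-fold). The 5 higher in heart were Dpp4, a surface peptidase, at 6.84, 5.44 and 5.15 against 3.71 and 3.66, the stem and endothelial cell protein Cd34 at 8.65, 8.80 and 9.11 against 7.97 and 5.99, Eng, endoglin, a TGF-beta coreceptor of endothelium, at 8.81, 8.16 and 8.02 against 6.23 and 6.68, Fap, fibroblast activation protein, at 4.24, 5.48 and 5.88 against 3.66 and 3.55, and Nt5e, the ectonucleotidase CD73, at 6.81, 6.73 and 7.01 against 4.41 and 6.76. Cd34 and Nt5e differed widely between the 2 fibroblast samples and moved with the choice of sample. The call of Nt5e was kept only on leaving out fibroblasts 1623 and lost on leaving out any of the other 4 arrays. Without fibroblasts 1571 its difference was 0.10 in place of 1.27, and that of Cd34 rose from 1.88 to 2.87, while without fibroblasts 1623 they were 2.44 and 0.89.

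Transcription factors of mesenchyme separated the sources in both directions. Of 31 listed, 27 were measured, 24 passed the filter, 16 were called higher in fibroblasts and 4 higher in heart (median of the 27, -1.75). Prrx2, a paired-related homeobox factor, lay at 2.93, 2.60 and 2.65 in heart and at 8.66 and 8.79 in fibroblasts (-6.002, SE 0.15, adjusted p = 2.52e-12), Tbx15, a T-box factor of skin and limb mesenchyme, at 3.10, 2.98 and 2.96 against 8.21 and 8.03, and Twist2, a factor of the dermis, at 3.87, 3.01 and 3.86 against 9.25 and 8.80. Tcf21, a factor of resident fibroblasts of the heart and other inner organs, lay at 6.56, 6.87 and 6.92 against 3.23 and 3.12 (3.61, adjusted p = 7.17e-08) and at 8.75, 9.57 and 9.68 in WT lungs. Meox1 (2.37), Meox2 (1.92, and 1.17 without fibroblasts 1623) and Wt1 (1.68, a call lost without heart 1592 or fibroblasts 1623) were the other 3 higher in heart. Genes listed for resident heart fibroblasts were likewise higher in heart. Of 14, 12 were measured, 11 passed the filter, 8 were called higher in heart (median of the 12, 2.52), with Abca8a, a lipid transporter, at 9.13, 9.89 and 10.04 against 4.13 and 3.94 (50.1-fold). Tbx20 and Gata4 of that list are also expressed by cardiomyocytes.

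Hox genes, which record a cell's position along the body axis, gave little to compare. Of 31 measured of 34 listed, 6 passed the filter and 3 were called, all higher in fibroblasts (median of the 31, 0.03, -0.05 with the arrays shifted to 1 median and 0.11 without fibroblasts 1571). Hoxa2 lay at 3.61, 3.41 and 3.18 against 4.85 and 5.30 (-1.67, adjusted p = 2.32e-05). Hoxd8 lay at 3.58, 3.17 and 3.74 against 6.57 and 3.86 and Hoxb3 at 4.04, 4.27 and 4.21 against 5.63 and 4.51, and both were high in fibroblasts 1571 more than in 1623. Without fibroblasts 1571 their differences were -0.36 and -0.34 and not called, which left 1 Hox gene called. Without fibroblasts 1623 they were -3.08 and -1.46, and 6 Hox genes were called. The call of Hoxb3 was also lost without heart 1592.

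The cytoskeleton of spread cells was higher in fibroblasts. Of 40 genes of actin stress fibres and adhesions, 36 were measured, 34 were called higher in fibroblasts and 1 higher in heart (median -2.33). Cnn1, calponin 1, lay at 4.93, 3.61 and 4.85 in heart and at 8.15 and 9.32 in fibroblasts (19.4-fold), Capg, an actin-capping protein, at 5.23, 4.84 and 5.47 against 8.77 and 9.09 (13.5-fold), and Flna, filamin A, at 7.60, 7.40 and 7.96 against 10.24 and 10.63 (6.88-fold). Pdlim7, which binds actin through a PDZ domain, was the 1 gene called higher in heart (1.49, adjusted p = 1.8e-05), although its 1 other probe set was called higher in fibroblasts. Actb, the general beta-actin that is often taken as a reference gene, was 2.69-fold higher in fibroblasts (11.93, 12.10 and 12.25 against 13.41 and 13.63, adjusted p = 1.75e-06).

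Most genes of cell division were higher in fibroblasts. In the hearts the mitosis list averaged 3.53 to 3.68 log2, below the table's median, and the replication list 4.50 to 4.59, above it. Of 32 mitosis genes, 31 were measured, 29 were called higher in fibroblasts and 1 higher in heart (median -3.80). Cdk1, the kinase that drives entry into mitosis, lay at 3.21, 3.64 and 3.42 in heart and at 8.88 and 9.05 in fibroblasts (-5.54, SE 0.23, adjusted p = 1.64e-10), Top2a, the topoisomerase of dividing cells, at 2.96, 3.32 and 2.91 against 8.22 and 8.36, and Anln, anillin of the cleavage furrow, at 3.56, 3.54 and 3.71 against 8.24 and 8.81. The exception was Cenpa, the centromeric histone, at 8.22, 8.43 and 8.21 against 7.33 and 7.81 (0.72, adjusted p = 0.00547), a call lost without fibroblasts 1571, while without heart 1593 a further mitosis gene was called higher in heart. Of 32 replication genes, 31 were measured, 29 called higher in fibroblasts (median -1.95), led by Rrm2, a subunit of ribonucleotide reductase, at 3.45, 3.07 and 3.49 against 8.42 and 8.50, Tk1 (-3.60) and Tyms (-3.32), which make thymidine nucleotides.

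Growth control genes, a list that holds D-type cyclins and Myc beside inhibitors of division, were mostly higher in fibroblasts as well. Of 21 genes of growth control and targets of p53, 18 were measured, 14 were called higher in fibroblasts and 1 higher in heart (median -1.92). Cdkn2a, the locus of the inhibitors p16 and p19Arf that often rises as cells are kept in culture, lay at 3.14, 3.05 and 2.98 in heart and at 9.62 and 9.24 in fibroblasts (-6.38, SE 0.19, adjusted p = 1.01e-11). Cdkn1a, which encodes the inhibitor p21, lay at 6.57, 5.91 and 6.56 against 10.73 and 10.89 (22.0-fold), and Cdkn2b, which encodes p15, at 4.53, 5.25 and 4.34 against 8.41 and 8.46. So the same 2 fibroblast samples read high for genes of mitosis and for these inhibitors. Ccng1, another target of p53, was called higher in heart by 0.40, a call lost on leaving out any 1 of the 5 arrays.

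Genes of the secretory pathway and of ribosomes showed smaller steps in the same direction. Of 34 genes of translocation and folding in the endoplasmic reticulum, 33 were measured, 32 were called higher in fibroblasts (median -1.40). Kdelr3, a receptor that returns proteins to the endoplasmic reticulum, lay at 5.27, 5.57 and 5.85 against 9.77 and 9.59 (17.4-fold), and Sec61b, a subunit of the translocation channel, at 8.53, 8.36 and 8.44 against 10.96 and 11.21 (6.23-fold). Of 57 cytosolic ribosomal proteins, 48 were measured, 47 called higher in fibroblasts (median -0.76), a group whose probe sets can share signal with pseudogenes. Rps19 lay at 11.33, 11.16 and 11.18 against 12.56 and 12.52 and Rpl12 at 11.15, 10.87 and 10.91 against 12.21 and 12.24. Ribosome biogenesis was divided. All 25 measured of 26 genes passed the filter, 11 were called higher in fibroblasts and 3 higher in heart (median -0.42), beside 37.6% and 29.5% of all genes compared. The nucleolar proteins Nop58 (-1.77), Nolc1 (-1.57) and Npm1 (-1.39) were higher in fibroblasts. Higher in heart were Polr1a, the largest subunit of RNA polymerase I, at 7.40, 7.39 and 7.30 against 6.26 and 6.39 (1.04, adjusted p = 0.00283), Polr1e, another of its subunits (1.02, a call lost without fibroblasts 1571), and Nop10 (0.55).

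Sugar and amino acid use split by step. Of 26 genes of glycolysis and of glutamine and serine use, 21 were measured, 20 passed the filter, 13 were called higher in fibroblasts and 4 higher in heart (median of the 21, -0.98, or -0.53 with the mean of all probe sets of a gene). The largest were enzymes that make amino acids. Psat1 and Phgdh of serine synthesis lay at 3.24, 3.89 and 4.58 against 9.34 and 9.35 and at 3.90, 4.67 and 4.65 against 8.08 and 8.36, and Asns, asparagine synthetase, at 4.72, 4.33 and 4.96 against 9.56 and 9.58 (29.8-fold). Hk2, a hexokinase of muscle and of growing cells, was higher in heart, at 10.85, 10.89 and 10.65 against 8.59 and 8.12 (2.44, adjusted p = 3.55e-08), followed by Aldoa (0.95), Pfkp (0.68, not called without fibroblasts 1623) and Hk1 (0.40, not called without heart 1592, heart 1593 or fibroblasts 1623, where it was 0.23).

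The heart arrays also carried genes of cells that are not muscle. All 20 endothelial genes listed were called higher in heart (median 3.94), and their mean level was 8.28, 8.42 and 8.32 in the hearts against 4.24 and 4.09 in fibroblasts and 9.62 in WT lungs. Vwf, von Willebrand factor, lay at 9.69, 8.57 and 8.31 against 2.21 and 2.61, Gpihbp1, which holds lipoprotein lipase on capillaries, at 9.23, 9.96 and 9.48 against 3.27 and 3.05, and Emcn at 9.39, 8.85 and 8.56 against 3.22 and 3.67. All 17 macrophage genes were measured, 16 passed the filter and 15 were called higher in heart (median of the 17, 3.67), with F13a1, C1qa and C1qb at 5.77, 5.08 and 4.86, and a mean level of 6.65 to 6.82 in heart against 3.65 and 3.69 in fibroblasts. Of 11 genes of MHC class II and antigen presentation, 9 were measured and 8 passed the filter and were called higher in heart (median of the 9, 1.49, or 0.82 with the mean of all probe sets of a gene). Cd74, the invariant chain, lay at 7.64, 7.88 and 7.82 against 4.01 and 3.46. Of 14 lymphocyte and neutrophil genes, 7 passed the filter and 2 were called higher in heart, Ptprc (3.79) and Coro1a (3.16), which macrophages express too. Over all genes compared, 29.5% were called higher in heart.

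Vessel wall genes divided. Of 12 genes of pericytes and smooth muscle, 10 were measured, 7 were called higher in heart and 2 higher in fibroblasts (median 2.38). Rgs5, of pericytes, lay at 10.85, 11.34 and 11.37 against 3.99 and 3.40 (180-fold), while Actg2, a smooth muscle actin, lay at 3.72, 3.59 and 4.14 against 7.16 and 8.27 (-3.90, adjusted p = 1.15e-05) and Lmod1 at -1.65, or -0.88 without fibroblasts 1623. Of 11 red blood cell genes, 6 were measured and 5 passed the filter and were called higher in heart (median of the 6, 2.54). Alas2, the haem synthesis enzyme of red cell precursors, lay at 7.54, 5.81 and 7.50 against 3.06 and 3.20. All 10 mesothelial genes, which mark the outer lining of the heart, passed the filter and 9 were called higher in heart (median 1.99). Upk3b lay at 9.87, 7.98 and 7.75 against 2.84 and 2.96 and Msln, mesothelin, at 7.06, 4.81 and 5.06 against 2.99 and 3.41, both highest in heart 1592, where the list's mean was 6.92 against 5.05 and 5.26 in the other hearts. Of 13 adipocyte genes, 10 were measured, 7 passed the filter, 2 were called higher in heart and 1 higher in fibroblasts (median of the 10, 0.68), set against 29.5% and 37.6% of all genes. The 2 higher in heart were Cidea, a lipid droplet protein, at 8.58, 9.09 and 9.12 against 3.15 and 3.33, and Lipe, hormone-sensitive lipase (3.01). The 1 higher in fibroblasts was Fasn, fatty acid synthase (-1.44, adjusted p = 0.0337), a call kept only without heart 1593 among the arrays left out in turn. The list's mean was highest in heart 1593, at 6.24 against 5.28 and 5.02. Of 11 genes of Schwann cells and neurons, 8 were measured, 4 passed the filter and 3 were called higher in heart (median of the 8, 0.31), led by the potassium channel Kcna1 (2.61). The part of these cells in the differences of the other lists was not tested.

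Other cells of the skin left little trace in the fibroblast arrays. Of 12 keratinocyte genes, 11 were measured, 3 passed the filter and 1, Trp63, was called higher in fibroblasts (2.83, 2.95 and 3.06 against 3.92 and 3.98). The mean level of that list was 3.36 and 3.38 in fibroblasts and 3.37 to 3.45 in heart. Of 14 genes of skeletal muscle and its precursors, all were measured, 2 passed the filter and 0 were called by limma, with 0 at an unadjusted p under 0.05, though 1 was called higher in fibroblasts without heart 1592. All 10 genes of melanocytes and hair follicle were measured, 5 passed the filter and 4 were called higher in heart (median of the 10, 0.25, or 0.44 without fibroblasts 1571 and 0.15 without 1623), among them Mitf at 9.23, 9.28 and 9.11 against 6.12 and 5.88 and Mlana at 7.31, 5.05 and 7.09 against 2.89 and 2.77. Mitf and Corin of that list are expressed outside melanocytes as well.

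Clock genes and imprinted genes were read because both are known to vary with the time of sampling or the state of cells. Of 16 clock genes, 15 were measured, 14 passed the filter, 8 were called higher in heart and 1 higher in fibroblasts (median of the 15, 0.95). Hlf and Dbp, output factors of the clock, lay at 8.29, 8.94 and 8.72 against 4.90 and 3.96 and at 9.10, 9.49 and 9.35 against 6.85 and 6.50, while Arntl, a core activator, lay at 4.04, 3.89 and 4.61 against 6.76 and 6.85 (-2.62, adjusted p = 0.000418). Clock genes called higher in fibroblasts numbered 2 without heart 1593, with the 5 arrays alone or with the arrays shifted to 1 median. With the 8 WT arrays alone they numbered 3. The sources used here do not give the time of day of sampling. Of 12 imprinted growth genes, 8 were measured, 4 were called higher in fibroblasts and 0 higher in heart (median -0.80, or -0.09 without fibroblasts 1571). Over all genes compared, the shares were 37.6% and 29.5%. Among the 4 were Meg3, a long non-coding RNA, at 6.75, 7.34 and 7.57 against 11.46 and 10.72, and Ndn, necdin, at 7.58, 7.64 and 7.66 against 10.17 and 10.04. Without heart 1593 an imprinted gene was also called higher in heart.

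A few highly expressed genes could not be told apart between the sources. Among the top 1% of genes by level, the 5 with the smallest differences were Gng5, a G protein subunit (-0.09), Hspa8, a constitutive chaperone (-0.03), Mgp, matrix Gla protein (-0.04), Myl12a, a non-muscle myosin light chain (0.12), and Tma7 (-0.03), with SEs between 0.12 and 0.25. Hspa8 lay at 12.29, 12.31 and 12.48 in heart and at 12.33 and 12.46 in fibroblasts, and Mgp at 12.27, 11.95 and 12.47 against 11.94 and 12.60. None of the 5 was called, which does not show that they are equal.

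The KO arrays gave a second reading of the same contrast in other animals, with 3 hearts and 2 fibroblast samples of NM1 KO mice. One KO heart, from mouse 1602, differed from the rest in its spread, since the upper quartile of its values was 5.63 log2 and that of mice 1603 and 1586 6.21 and 6.17 (6.23 to 6.31 in WT hearts). Of 11200 genes compared in KO, 7943 were called (70.9%), 2965 higher in heart (26.5%) and 4978 higher in fibroblasts (44.4%), or 3352 and 4668 without mouse 1602. Of the 3278 genes called higher in WT heart, 3227 were higher in KO heart too, 2725 of them called, or 3257 and 2932 without mouse 1602. Rasl12, a Ras-like protein, and Urb1, a ribosome biogenesis factor, were called the opposite way, at 0.88 and 0.40 in WT and at -1.004 and -0.46 in KO. Of the 4185 genes called higher in WT fibroblasts, 4169 had the same sign in KO and 3989 were called, or 4174 and 3939 without mouse 1602. By limma 0 of them were called the opposite way, and 0 had an unadjusted p under 0.05 in that direction, or 0 and 1 without mouse 1602. High on every array of one source and low on every array of the other held in KO as well for 189 of the 255 heart genes and 75 of the 98 fibroblast genes.

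The difference between the WT and KO contrasts, tested directly, was called for 5 of 25788 probe sets (0.0194%), and 2104 had an unadjusted p under 0.05. The 5 probe sets are given in the closing section. Il6 differed by -8.53 in WT and -8.47 in KO, Pln by 10.46 and 10.38, and Cdk1 by -5.54 and -5.33.

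The atrial genes differed widely between the KO hearts. Myl7 lay at 4.08, 12.14 and 5.66 in the KO hearts of mice 1602, 1603 and 1586 and at 3.12 and 3.16 in KO fibroblasts, and Myl4 at 4.18, 11.58 and 5.42 against 4.80 and 4.74. Only the heart of mouse 1603 was as high as the WT hearts at these genes, and Myl4 in mouse 1602 lay below both fibroblast samples. Pln lay at 13.12, 13.06 and 13.18 in the same KO hearts. Myl7 differed by 4.15 in KO (adjusted p = 0.0499) and Myl4 by 2.29 (adjusted p = 0.256), or by 5.76 and 3.73 without mouse 1602. The median of the atrial list was 2.29 in KO, 3.73 without mouse 1602 and 5.54 in WT. The change in contrast between WT and KO was not called for either gene. Mylk, the myosin light chain kinase of smooth muscle, read 7.11, 7.60 and 7.68 in WT heart and 6.99 and 7.84 in WT fibroblasts (0.05, not called) and differed by -1.65 in KO (adjusted p = 0.000113), and its change in contrast was not called.

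**Figure D5:**
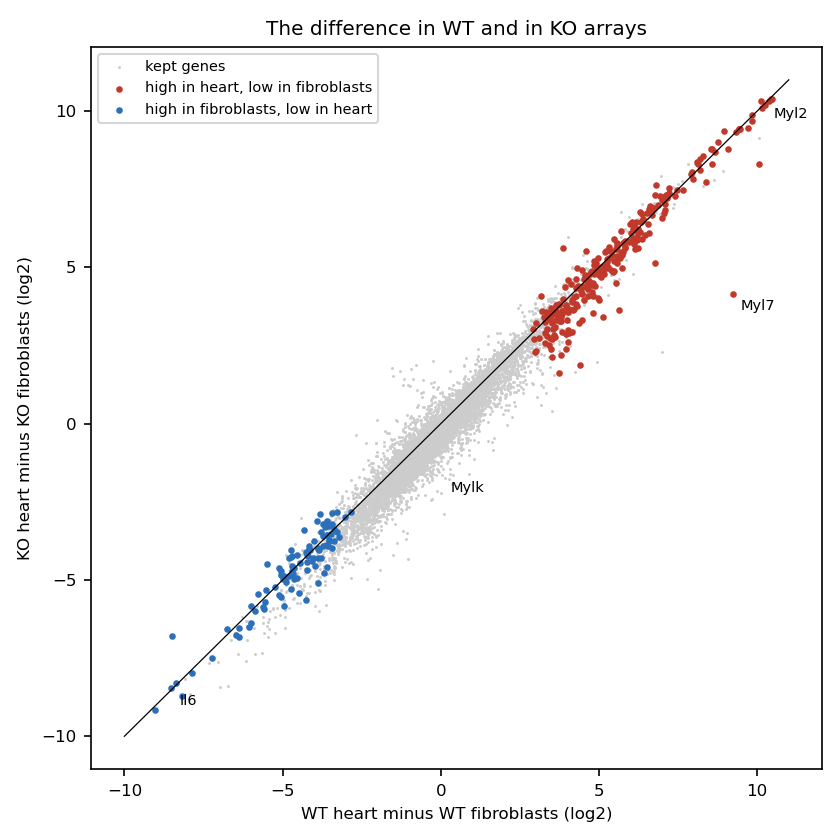
Difference between heart and fibroblasts of each gene in KO (vertical axis) and in WT (horizontal axis), in log2, with a line where both are equal, the 255 genes high in WT heart and low in WT fibroblasts in red and the 98 of the reverse in blue. Points lie along the line, with Myl7 far below it at 9.23 in WT and 4.15 in KO.

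WT lungs were read on the same table for the muscle genes. Myl2 was near the table's median there, at 3.92, 3.71 and 4.14, and Rpl3l was low, at 2.80, 2.77 and 2.69. Other muscle genes read far above the median, with Actc1 at 11.60, 9.97 and 9.84, Tnnt2 at 10.49, 8.52 and 8.52 and Myl7 at 11.68, 10.15 and 9.84, each highest in the lungs of mouse 1592. Igfbp2, a carrier of insulin-like growth factors that was 161-fold higher in fibroblasts than in heart, was high in lungs too, at 9.95, 10.36 and 10.99.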

How the data were processed

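Total RNA of each sample was extracted with Trizol and hybridised as biotin-labelled cRNA to 1 Affymetrix array, per the labels' protocols. The deposited values are on a log2 scale and come from Partek 6.4, per the submitters' processing notes. The sources used here do not give the background correction, summarisation or normalization, and no detection calls or scanner files were used, so differences that involve low signals may be compressed or inflated. Control entries (104 of 45141) were left out. Groups were taken from the labels, and the replicate numbers are mouse numbers.

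The limma package (3.58.1, R 4.3.3) fitted 6 group means over all 16 arrays, with 10 residual and 3.53 prior degrees of freedom, and tested WT heart minus WT fibroblasts with moderated statistics. Benjamini-Hochberg adjustment ran over the 24763 probe sets whose mean in either group exceeded the table's median of 3.79. No array was a copy of another, since the smallest mean absolute difference between 2 of the 5 arrays was 0.222 log2.

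Probe sets were named from GEO's platform annotation and symbols updated through RefSeq: 28898 of 45037 had 1 gene, 551 several and 15588 none. Each of 17097 genes was read by its probe set with the highest mean over the 16 arrays. Among 3861 called genes with several probe sets, 144 had another one called in the opposite direction. The 48 gene lists held 994 genes, 880 of them measured. The members and lists were chosen with earlier results of these data known. Genes named in the text are the 15 with the largest called, non-overlapping difference in each direction, the 3 largest called members of each list and those called against its direction, the genes of the pairs, the markers, and 5 highly expressed genes with the smallest differences. Mybpc3, Rasl12, Urb1, Dkk3 and Pcx were named after their values were seen. Promoters come from RefSeq (GRCm38.p6). The fit was tested on simulated data. Alternatives were other sets of arrays, quantile normalization, a median shift, other filters, an intensity trend, the mouse as a block, other probe set rules and leaving out each array. No heart and fibroblast array come from the same mouse number.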

Additional observations from a re-analysis of the deposited data

Results flagged for a closer look

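The heart minus fibroblasts difference itself differed between WT and KO arrays at 5 probe sets, by limma's test of the interaction. For Moxd1, a monooxygenase-like protein, the WT difference exceeded the KO difference by 2.31 (adjusted p = 0.0122), with means of 2.86 in WT heart, 3.34 in WT fibroblasts, 2.82 in KO heart and 5.61 in KO fibroblasts. For Lrrc15, a leucine-rich repeat membrane protein, it did so by 3.14 (adjusted p = 0.0122), with means of 3.18, 4.05, 2.84 and 6.86 in the same order. For Chodl, chondrolectin, it did so by 3.03 (adjusted p = 0.0127), with means of 2.89, 3.37, 3.18 and 6.69. Probe set 1423477_PM_at, which has no single gene name here, gave 2.88 (adjusted p = 0.00952), with means of 2.75, 3.19, 2.71 and 6.03. At these 4 probe sets the group that stood apart was KO fibroblasts. Probe set 1434914_PM_at gave 3.22 (adjusted p = 0.0122), with means of 6.54, 3.90, 3.18 and 3.75, and there the group that stood apart was WT heart. KO fibroblasts were 2 samples.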

How the results depend on the processing

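Of the 241 named genes, 225 were called. Of these, 20 lost the call in at least 1 alternative and 0 changed direction. The counts of called probe sets were 4269 in heart and 5919 in fibroblasts with a filter at the upper quartile, and genes called by limma's treat test against a log2 difference of 1, chosen after seeing the data, were 1446 and 1433. Called differences of at least 2-fold were found for 4554 and 5591 probe sets. The median difference over probe sets was -0.0978 after quantile normalization, -0.238 with the arrays shifted to 1 median, 0.0178 with no filter and -0.271 with the filter at the upper quartile. With low set below the lower quartile, 67 genes were high in heart and 13 high in fibroblasts. The WT and KO contrasts differed at 3 probe sets after quantile normalization and at 7 to 12 with 1 KO array left out.

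Genes that were not called changed sign as follows, and the cause was not tested. With the arrays shifted to 1 median, Cox8a was -0.058, Dtnb -0.013 and Mylk -0.032. After quantile normalization, Hspa8 was 0.0074. Without heart 1592, Dtnb was -0.027 and Hspa8 0.0021. Without heart 1624, Mgp was 0.099 and Mylk -0.019. Without heart 1593, Itga5 was -0.070 and Mylk -0.063. Without fibroblasts 1571, Cox8a was -0.0019 and Mylk -0.38. Without fibroblasts 1623, Dtnb was -0.044, Hspa8 0.033, Mgp 0.29 and Tma7 0.049. Over the arrays left out in turn, Cox8a ran from -0.0019 to 0.0519, Dtnb from -0.044 to 0.181, Hspa8 from -0.103 to 0.033, Itga5 from -0.070 to 0.361, Mgp from -0.372 to 0.291, Mylk from -0.376 to 0.470 and Tma7 from -0.107 to 0.049.

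The mouse number as a replicate block gave a consensus correlation of 0.0542 and 7467 called genes, 7454 of them shared with the 7463, with 6955 probe sets higher in heart and 8936 in fibroblasts. The 5 arrays alone gave 7943 called genes, 7287 of them shared. Signals near the table's median limit what can be read of genes low in 1 source.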

Other observations

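Among the 255 genes high in WT heart and low in WT fibroblasts, 81 were members of the lists or pairs, and 31 of the 98 of the reverse. Gene families that recurred among the rest were counted after their values were seen, so the counts come from the values that picked the families and test nothing. Of all 11118 genes compared, 29.5% were called higher in heart and 37.6% higher in fibroblasts, and 2.29% were high in heart and low in fibroblasts. Of 17 measured Asb genes, which encode ankyrin repeat proteins of ubiquitin ligases, 13 passed the filter, 9 were called higher in heart and 3 higher in fibroblasts (median of the 17, 1.40), and 5 were high in heart and low in fibroblasts. Of 29 Klhl genes, which encode kelch-like ligase adaptors, 21 passed the filter, 12 were called higher in heart and 4 higher in fibroblasts (median of the 29, 0.16). Of the Klhl genes, 3 were high in heart and low in fibroblasts. Of 8 Gimap genes, GTPases of immune cells, 6 passed the filter, 5 were called higher in heart (median of the 8, 1.87) and 2 were high in heart and low in fibroblasts.

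The called genes of heart had a median difference of 1.42 in size and those of fibroblasts 1.24. In 858 of the genes called higher in heart and 716 of those called higher in fibroblasts, the mean of the other source was below the table's median.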
